A study of Mus musculus with 18 samples.

Results

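Malat1, Neat1, Gas5, Snhg1, Snhg12 and Pvt1 are 6 long noncoding RNA (lncRNA) genes that were chosen by name from the 55401 genes counted in mRNA-seq of NIH/3T3 cells, a fibroblast line derived from mouse embryos. The circRNAs lying wholly inside these genes were added, 18 of the 16171 listed in circRNA-seq, and none lay only partly inside. The WT cells were unedited, and the XPO4 KO cells were a single line made with CRISPR-Cas9, in which both copies of Xpo4, the gene of the nuclear export receptor exportin 4, were edited. The study examined whether loss of XPO4 leaves circRNAs in the nucleus. Total RNA of 3 WT and 3 KO replicates was sequenced for genes without RNase R, and nuclear, cytoplasmic and total RNA of 2 WT and 2 KO replicates each was sequenced for circRNAs after RNase R, which digests linear RNA. All cells were otherwise untreated as far as the labels state, and no source says that replicates were separate cultures, so the p-values measure the spread between these libraries alone. The linear lncRNAs were measured in whole cells, and these libraries do not give their place within the cell. By RT-qPCR of cell fractions, the study found Malat1 not significantly shifted between nucleus and cytoplasm after XPO4 loss. It also reported that MALAT1 was not pulled down with XPO4 in human HEK293T cells.

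The mRNA-seq libraries held 16974062 to 22057323 counted reads, of which 0.180% to 0.241% lay in the 6 genes. The column heading inside each of the 6 gene count files names the other genotype, so the direction of every gene difference below rests on the sample titles. Xpo4 itself did not settle this: its counts were 657, 614 and 685 in WT against 712, 504 and 687 in KO (log2 fold change 0.18, adjusted p = 0.193), and without KO replicate 2, described next, it was called higher in the libraries titled KO (Xpo4 log2 fold change 0.34, adjusted p = 0.000252). KO replicate 2 stood apart from the other KO replicates, with a chi-square per gene of 9.74 and 11.3 against 2.92 to 4.65 for the remaining pairs of one genotype, and counts and values without it stand beside results below that it moves. All 8 fibroblast markers were detected, Col1a1 at 3349 CPM (counts per 1000000 counted reads) in WT and 2658 in KO, and 5 of them were higher and 2 lower in KO in the test used below. A protocol field of the labels speaks of blood, and 5 of 12 blood cell markers, including the hemoglobin gene Hbb-bs, had no reads, with a summed level of all 12 of 8.12 to 9.55 CPM in WT and 2.36 to 2.97 CPM in KO. That level was led by Ptprc, a leukocyte phosphatase, at 5.16 and 1.49 CPM, and both markers that could be tested, Ptprc and Ppbp, were lower in KO. The part of such cells in the results below was not tested. Of the 6 epithelial and endothelial markers none reached the test, and their summed level was at most 0.922 CPM.

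Malat1 is among the most abundant RNAs of the nucleus, where it gathers in speckles, the storage sites of splicing factors. Its 3′ end is made by RNase P, which cuts off a small tRNA-like RNA, and not by polyadenylation. Neat1 is the scaffold on which paraspeckles are built, and its neighbourhood to Malat1 on the chromosome is conserved. Gas5, Snhg1 and Snhg12 are host genes: their introns hold small nucleolar RNAs (snoRNAs), which guide chemical modification of ribosomal RNA, while the spliced exons leave the nucleus as an RNA without a long reading frame that is destroyed by nonsense-mediated decay as it is translated. Such hosts often begin with a run of pyrimidines, the start type of ribosomal protein genes. Pvt1 lies next to the Myc oncogene, and one of its exons is known to form an abundant circRNA.

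On GRCm38, Malat1 (ENSMUSG00000092341.3) lies at chr19:5795690-5802672 and Neat1 (ENSMUSG00000092274.3) at chr19:5824708-5845478, both on the minus strand and 22036 bp apart. Gas5 (ENSMUSG00000053332.13) lies at chr1:161034422-161038539, Snhg1 (ENSMUSG00000108414.1) at chr19:8723475-8726443, Snhg12 (ENSMUSG00000086290.9) at chr4:132308623-132311024 and Pvt1 (ENSMUSG00000097039.8) at chr15:62037986-62378096, all on the plus strand. Pvt1 spans 340111 bp with 6996 exonic bases, whereas the exons of Malat1, merged over its transcripts, cover its whole 6983 bp. Other annotated genes share 17.8% of the exonic bases of Gas5, 20.9% of Snhg1 and 19.6% of Snhg12, against 1.85% to 7.72% for the other genes. Reads that fall on exons of a pair of genes were left uncounted under the settings in the file headers, and strand was not used.

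The stretch around the start of transcription is shown for the 4 members with a RefSeq entry (GRCm38.p6), because the start type is what the snoRNA hosts are known for. Each runs from 30 bases before the start to 50 bases from it, and the capitals mark the longest run of C or T between 10 bases before and 20 bases from the start. For Gas5, the downstream one of 2 annotated starts is shown.
Gas5 (chr1:161035136-161035215, plus strand): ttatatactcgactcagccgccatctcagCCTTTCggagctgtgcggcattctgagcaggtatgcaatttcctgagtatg
Snhg1 (chr19:8723457-8723536, plus strand): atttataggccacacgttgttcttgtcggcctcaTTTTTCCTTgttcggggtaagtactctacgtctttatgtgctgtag
Snhg12 (chr4:132308648-132308727, plus strand): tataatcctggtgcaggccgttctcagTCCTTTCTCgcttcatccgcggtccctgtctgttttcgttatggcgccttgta
Malat1 (chr19:5802623-5802702, minus strand): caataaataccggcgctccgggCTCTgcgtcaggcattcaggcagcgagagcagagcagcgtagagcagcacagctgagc
The run was 9 bases long in Snhg1 and Snhg12, 6 at the Gas5 start shown, 3 at the upstream Gas5 start and 4 in Malat1. Over all 32851 start windows the median run was 4 bases, and 11.2% held a run of at least 8. Only the Gas5 start shown read C followed by 4 pyrimidines from its first base, as did 2.51% of all windows. The letters TATAAA, sought on the strand of the gene between 40 and 20 bases before the start, were in none of these windows and in 1.99% of all. Neat1 and Pvt1 are named without a start sequence.

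Levels differ widely among the 6 lncRNAs. Per length, as FPKM (reads per kilobase of exon and 1000000 counted reads), the WT order was Malat1 at 154 ± 15.4 (SD, n = 3), Gas5 at 107 ± 3.02, Snhg1 at 38.0 ± 2.35, Neat1 at 28.3 ± 0.860, Snhg12 at 8.98 ± 1.24 and Pvt1 at 5.74 ± 0.532. No neighbours in this WT order overlapped between libraries. In KO the order was the same, at 158 ± 49.1 for Malat1, 79.8 ± 6.98 for Gas5, 33.8 ± 2.16 for Snhg1, 29.6 ± 3.95 for Neat1, 10.2 ± 1.18 for Snhg12 and 3.63 ± 0.148 for Pvt1, and only Snhg1 and Neat1 overlapped. The Neat1 value averages over its whole annotated length, so isoforms that stop early are not told apart. Gas5 stood 2.74 to 2.93 times above Snhg1 in the WT libraries and 2.29 to 2.42 times above it in the KO libraries. The lengths used are exons merged over transcripts, which cover all 2969 bp of Snhg1, all 2402 bp of Snhg12 and 3760 of 4118 bp of Gas5. Reads on bases shared with other genes were also left uncounted. The place of these hosts in the order and the ratio of Gas5 to Snhg1 therefore depend on the lengths chosen. The study's methods do not state whether polyadenylated RNA was selected for these libraries. The place of Malat1 in the order and its ratio to Neat1 therefore hold for these libraries alone. The plot of the members' levels shows each library.

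**Figure D1:**
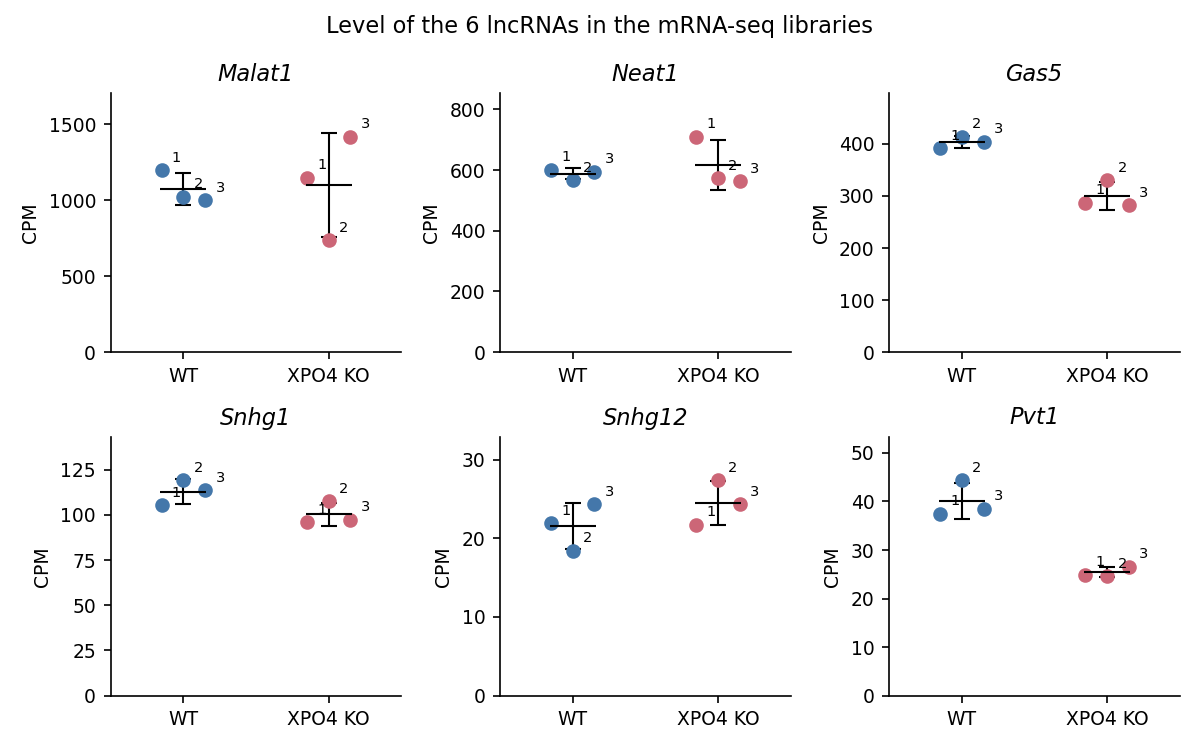
Level of each lncRNA in CPM (y axis, from 0) in the WT and XPO4 KO mRNA-seq libraries. Points are libraries with their replicate number, and bars are the mean and SD of 3 libraries. The KO points of Gas5 and Pvt1 lie below all WT points, and KO replicate 2 is the lowest point of Malat1 at 739.6 CPM.

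Gas5 and Pvt1 were lower in KO than in WT, and the other 4 lncRNAs did not pass the test (edgeR's quasi-likelihood test over all genes, adjusted p under 0.05). All 6 were abundant enough to be tested. The background was high: 48.7% of the 14688 genes tested passed, with 23.6% of all tested genes lower and 25.1% higher in KO, and 57.8% had KO and WT libraries that did not overlap. The share of the lncRNAs called, 2 of 6, was no higher than this background, nor was the share that did not overlap, which were the same 2. In bulk RNA, fewer cells making a transcript and less of it per cell cannot be told apart.

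The nuclear body RNAs come first. Malat1 was at 1197, 1025 and 1000.2 CPM in the WT replicates and at 1150.1, 739.6 and 1420.1 CPM in the KO replicates. The KO libraries thus lay on both sides of the WT libraries, and their SD of 343 CPM was over the 107 CPM of WT. The log2 fold change was 0.04 ± 0.16 (SE), with an adjusted p of 0.871. Without KO replicate 2 it was 0.26, with an adjusted p of 0.000824 in the same edgeR test, so 1 library decided whether Malat1 passed. Over all alternatives tried for Malat1 the adjusted p ran from 0.000824 to 0.994, and its direction turned without KO replicate 3 (log2 fold change -0.18). Neat1 was at 601, 567 and 594 CPM in WT and at 710.4, 573 and 564 CPM in KO. Only KO replicate 1 rose above the WT range, and KO replicate 3 fell just under it (log2 fold change 0.07 ± 0.08, adjusted p = 0.504). The interval of the ratio of KO to WT ran from 0.825 to 1.27 for Malat1 and from 0.943 to 1.16 for Neat1, on a 95% normal approximation from the SE. The FPKM of Neat1 was between 0.169 and 0.200 of that of Malat1 in the WT libraries. The same ratio was 0.208, 0.261 and 0.133 in KO, a wider range that holds the WT one.

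Among the snoRNA hosts, Gas5 was counted 7782, 8084 and 8914 times in WT against 5114, 5918 and 4801 times in KO, or 391, 414 and 404 CPM against 287, 330.2 and 283 CPM. All 3 KO libraries lay below all 3 WT libraries. The log2 fold change was -0.43 ± 0.07 (SE), a KO level 0.744 of the WT level (95% interval 0.680 to 0.814), with an adjusted p of 0.000143. It passed under all 12 alternatives, with an adjusted p of 0.00205 at most. Snhg1 was at 105, 119 and 114 CPM in WT and at 96.0, 108 and 97.4 CPM in KO. The ranges overlapped through KO replicate 2 and WT replicate 1, and the log2 fold change of -0.17 ± 0.07 had an adjusted p of 0.0521, just over the threshold. Its adjusted p ran from 0.00183 without KO replicate 2 to 0.208 without WT replicate 2, and Snhg1 was called lower in 7 of 12 alternatives, among them the other scalings (adjusted p = 0.0473 to 0.0486). Snhg12 was at 21.9, 18.4 and 24.3 CPM in WT and at 21.7, 27.4 and 24.3 CPM in KO, with overlapping ranges. Its log2 fold change was 0.18 ± 0.11, with an adjusted p of 0.205 and a 95% interval of the ratio from 0.972 to 1.32.

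Pvt1 was counted 746, 867 and 849 times in WT against 444, 442 and 451 times in KO, or 37.5, 44.4 and 38.5 CPM against 24.9, 24.7 and 26.6 CPM. The KO libraries were close to each other and well below the WT libraries. The log2 fold change was -0.66 ± 0.08, a KO level 0.632 of the WT level (95% interval 0.566 to 0.705), with an adjusted p of 1.67e-05 and at most 0.000244 under the 12 alternatives. This is the largest of the 6 changes in size. In the plot of the differences, leaving out KO replicate 2 moved Malat1 most and left Gas5 and Pvt1 on the same side.

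**Figure D2:**
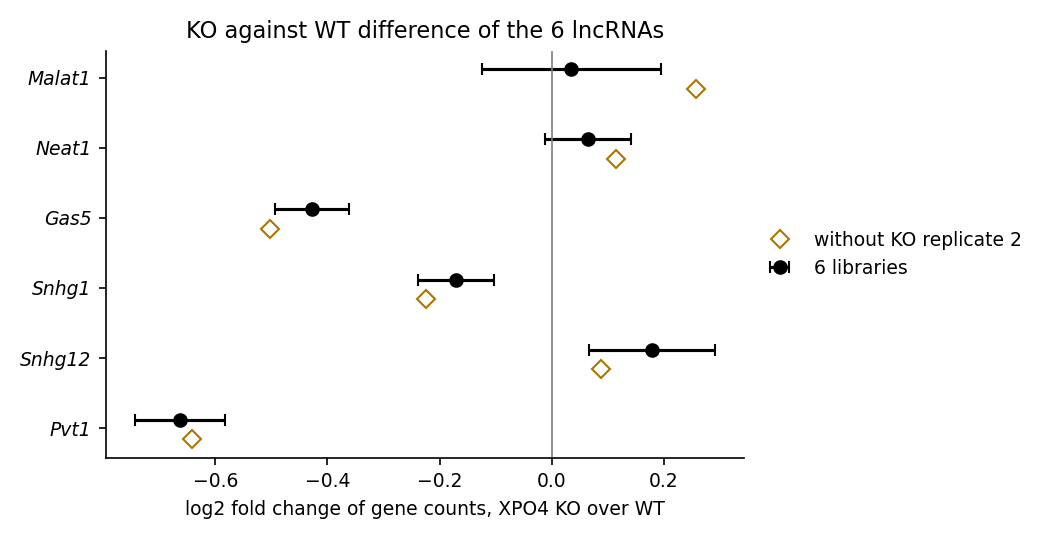
Difference between XPO4 KO and WT of each lncRNA as a log2 fold change of gene counts (x axis). Black points with bars are the estimate and its SE from 6 libraries, and open diamonds are the estimate without KO replicate 2. Gas5 and Pvt1 lie at -0.43 and -0.66, and Malat1 moves from 0.04 to 0.26.

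The genes whose level followed each lncRNA most closely over the 6 libraries were named by Pearson's r of log2 CPM, as a description over points that share genotype and library. For Gas5 they were Rpl32 (r = 0.999) and Rpl5 (r = 0.998), both ribosomal protein genes, and Mcrs1 (r = 0.998). For Pvt1 they were Eogt, Pigh and the lincRNA Gm26660 (r = 0.997 to 0.999). For Snhg1 they were the pseudogene Gm6311, Emg1, a ribosome assembly methyltransferase, and Mthfd2, a mitochondrial folate enzyme (r = 0.989 to 0.991). All 9 of these were lower in KO, a direction that their choice by r with these lncRNAs largely fixed. The log2 fold changes were -0.58 for Rpl32, -0.48 for Rpl5, -0.46 for Mcrs1, -0.27 for Eogt, -0.80 for Pigh, -0.89 for Gm26660, -0.82 for Gm6311, -0.21 for Emg1 and -0.17 for Mthfd2. For Malat1 they were the pseudogene C920009B18Rik, Anln and Map1b (r = 0.992 to 0.994), for Neat1 Lrrc14, Cep131 and the antisense gene Gm16364 (r = 0.960 to 0.990), and for Snhg12 Ctu2, Zfp873 and Uchl3 (r = 0.974 to 0.991), of which none was called. The lack of calls likewise follows in part from the choice by r with lncRNAs that were not called. Among the members, Gas5 went with Pvt1 at r = 0.92 and with Snhg1 at r = 0.90, while Malat1 and Neat1 had r = 0.15.

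The other snoRNA hosts moved in both directions. Of 15 matched in the files 12 were tested, and 2 were higher and 2 lower in KO, so 4 of 12 were called against 48.7% of all genes. Snhg18 rose from 26.1 to 41.0 CPM (log2 fold change 0.65, adjusted p = 4.58e-05) and Snhg8 from 35.0 to 45.3 CPM (0.37, 0.00643). Snhg17 fell from 59.2 to 47.3 CPM (-0.33, 0.000614) and Dancr from 18.3 to 14.2 CPM (-0.37, 0.0186). The median log2 fold change of the list was -0.12, against -0.00293 over all genes. Without KO replicate 2 the list had 2 higher and 6 lower.
Of 14 proteins tested that bind and assemble snoRNAs, 6 were lower and none higher in KO, and 8 did not pass. Among all genes tested, 23.6% were lower and 25.1% higher. Shq1, an assembly factor of H/ACA particles, fell from 24.4 to 15.5 CPM (log2 fold change -0.65, adjusted p = 0.000108), and Dkc1, the pseudouridine synthase of these particles, from 95.1 to 74.8 CPM (-0.35, 0.000545). Ruvbl2 and Ruvbl1, ATPases of the assembly machinery, fell by 0.32 and 0.28 on the log2 scale. Without KO replicate 2, 8 were lower and none higher. Of the nonsense-mediated decay factors, 1 of 14 was higher and 2 were lower, and without KO replicate 2 it was 1 and 3. The kinase Smg1 was among the lower ones (-0.49, 0.00189), and the higher one was Rbm8a, of the exon junction complex (0.33, 0.000901). Of 8 mTOR and pyrimidine-start regulators, Eif4ebp2 was higher (0.31, 0.000514), and Tsc1 (-0.50, 6.45e-05) and Eif4ebp1 (-0.22, 0.0150) were lower.

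Of the 14 paraspeckle proteins tested, 3 were higher and 4 lower in KO. Sfpq, a core protein without which paraspeckles do not form, fell from 770.3 to 603 CPM (log2 fold change -0.36, adjusted p = 0.000137), and Ewsr1 from 596 to 517 CPM (-0.21, 0.00394). Hnrnph3 rose from 20.7 to 29.1 CPM (0.49, 0.000148) and Dazap1 from 148 to 187 CPM (0.33, 0.000164). Among 12 genes of Malat1 3′ end processing and the nuclear speckle, 2 were higher and 5 lower. Elac2, the enzyme that trims the other end of the tRNA-like fragment, fell from 66.8 to 53.5 CPM (-0.32, 0.000399), and Pop1, a protein of RNase P, from 72.5 to 52.4 CPM (-0.47, 1.71e-05). The speckle scaffold proteins Son (-0.42, 0.00104) and Srrm2 (-0.41, 0.00187) were also lower.
For comparison, 9 of 12 other well known lncRNAs tested were called, 4 higher and 5 lower, and without KO replicate 2 the counts were 5 and 5. The imprinted RNA H19 fell from 111 to 14.8 CPM (-2.92, 2.83e-12). Meg3 (0.68, 1.51e-06), Rian (0.58, 8.72e-07) and Mirg (0.53, 3.20e-05), transcripts of a single imprinted locus, rose. The median log2 fold change was -0.16 for the snoRNP proteins, -0.07 for the decay factors and for the mTOR list, -0.11 for the paraspeckle proteins, -0.05 for the Malat1 processing and speckle genes and -0.02 for the other lncRNAs, against -0.00293 over all genes tested.

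**Figure D3:**
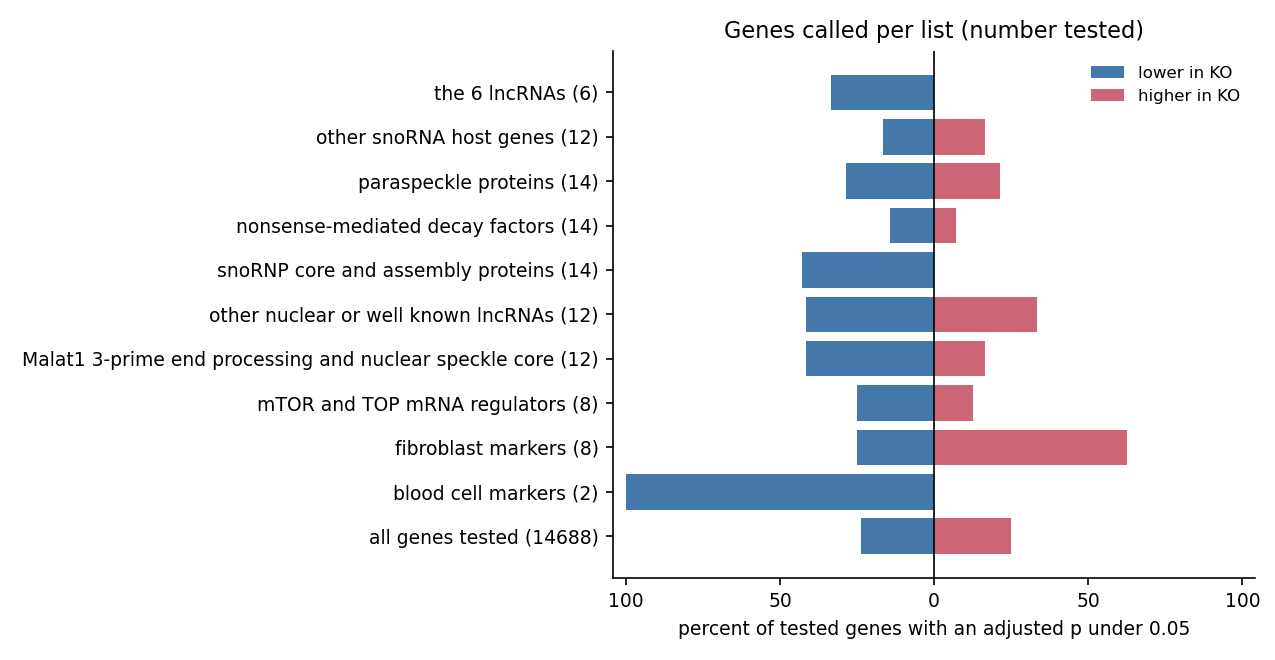
Percent of the tested genes of each list that passed an adjusted p of 0.05 in edgeR's test, with genes lower in XPO4 KO to the left and higher to the right of 0 (x axis), and the number tested in brackets. The bar of all 14688 genes tested gives the background of 23.6% lower and 25.1% higher, and the snoRNP proteins, the 6 lncRNAs and the blood markers have bars on the left side alone.

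Genes beside the lncRNAs were read off the same fit. Of 71 genes lying beside a member, within 100 kb of its ends, 37 were tested, and 7 were higher and 11 lower in KO. Zbtb37, which overlaps Gas5, is not in these counts. Around Gas5 every tested gene was lower: the 5 within 100 kb, among them Rc3h1 (log2 fold change -0.57), Serpinc1 (-2.96), Cenpl (-0.62) and Klhl20 (-0.31), and Zbtb37 (-0.76), which overlaps it on the opposite strand. Zbtb37 was counted 952, 801 and 859 times in WT against 491, 278 and 559 times in KO. Serpinc1, an antithrombin gene, was near the detection limit at 1.22 CPM in WT and 0.152 in KO. Next to Pvt1 the one tested gene was Myc, which lies 47612 bp away and fell from 134 to 74.0 CPM (log2 fold change -0.86, adjusted p = 5.41e-08), so this neighbouring pair was lower together. Around Malat1, 4 of 11 tested genes were higher, among them Ehbp1l1 (1.41), Ltbp3 (0.58) and Sssca1 (ENSMUSG00000118125.1, 0.68), and none was lower. Neat1 shares these neighbours, together with Cdc42ep2 (0.25) and Pola2 (-0.23) on its other side. Near Snhg1, Stx5a (0.30) and Tmem223 (0.65) were higher and Ttc9c (-0.19) lower. Near Snhg12, Rcc1 (-0.38), Gm17300 (-0.49) and Ythdf2 (-0.18) were lower. Whether neighbours share their change with a lncRNA beyond the background of 48.7% called was not tested.
The snoRNA genes inside Gas5 (10), Snhg1 (8) and Snhg12 (5) had 0 counted reads in every library, Snord78, Snord80, Snord47, Snord22, Snora44 and Snora61 among them. Each of them lies wholly on bases annotated as exon of its host, where a read falls on both genes and is left uncounted, so the 0 does not tell whether snoRNAs were sequenced.

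CircRNAs came from 4 of the 6 genes: 12 from Pvt1, 3 from Malat1, 2 from Gas5 and 1 from Snhg1, and none was listed for Neat1 or Snhg12. Summed over the 12 libraries, Pvt1 gave 5019 junction reads, Gas5 83, Malat1 29 and Snhg1 17. The libraries held 2189 to 4383 junction reads in the nuclear fraction, 50629 to 81941 in the cytoplasmic fraction and 50341 to 58165 in total RNA. All 12 Pvt1 circles, 1 of the Gas5 circles and the Snhg1 circle had both ends on annotated exon edges. The junctions that carry these findings are shown as the genome reads across the closure (GRCm38.p6, on the strand of the gene). Each has 40 genomic bases up to the closure and 40 after it, with the 10 bases on either side in capitals. Whether introns inside a circle were kept is not told by junction reads.
Pvt1 chr15:62107148-62107465: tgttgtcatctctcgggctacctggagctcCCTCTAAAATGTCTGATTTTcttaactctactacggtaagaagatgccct
Pvt1 chr15:62107148-62175548: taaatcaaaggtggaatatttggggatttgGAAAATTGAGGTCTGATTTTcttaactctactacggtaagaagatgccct
Gas5 chr1:161036208-161036579: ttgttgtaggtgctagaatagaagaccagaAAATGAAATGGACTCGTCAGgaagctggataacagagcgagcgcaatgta
Gas5 chr1:161036853-161037287: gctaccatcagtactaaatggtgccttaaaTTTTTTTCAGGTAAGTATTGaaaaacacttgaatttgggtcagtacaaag
Snhg1 chr19:8725014-8725523: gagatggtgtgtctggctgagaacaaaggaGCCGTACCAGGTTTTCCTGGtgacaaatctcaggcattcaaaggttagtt
Malat1 chr19:5796326-5796850: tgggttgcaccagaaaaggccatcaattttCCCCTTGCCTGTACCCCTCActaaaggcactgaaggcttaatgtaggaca
Malat1 chr19:5801662-5801857: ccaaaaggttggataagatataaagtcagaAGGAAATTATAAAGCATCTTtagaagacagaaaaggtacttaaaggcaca
Malat1 chr19:5802304-5802517: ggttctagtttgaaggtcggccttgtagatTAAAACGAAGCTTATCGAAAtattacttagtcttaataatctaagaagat
In the genome, AG stood just before and GT just after the circle on the strand of the gene for all 12 Pvt1, both Gas5, the Snhg1 and 2 of the 3 Malat1 circles. For Malat1 chr19:5801662-5801857 these letters were found on the opposite strand alone. The calling of circRNAs by find_circ may itself require these letters, so they are not read as a finding about the circles. The shown Pvt1 circles share their first 40 bases, and 5 of the 12 Pvt1 circles begin at this same exon start. The second Gas5 circle begins where an annotated exon ends and ends where another begins, so that its genomic span holds intron, 1 exon and the snoRNA gene Snord78.

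The single-exon Pvt1 circle of 318 bases dominated. In total RNA 1 and 2 junction reads were found for WT, against 566 and 569 for KO, or 0.173 and 0.363 per 10000 junction reads against 97.3 and 113. It ranked as 2 by reads in both KO total libraries and as 8379 and 7044 in those of WT. The groups did not overlap, as for 70.1% of the circRNAs tested in total RNA. Scaled for depth, the reads gave a ratio of KO to WT of 394, with a 95% counting interval of 134 to 1912. Its log2 fold change was 8.49, but with 2 libraries each and edgeR's test the adjusted p was 0.0580, over the threshold (unadjusted p = 1.09e-05). No adjusted p among the 8903 circRNAs tested in total RNA was smaller than 0.0580. With DESeq2 the adjusted p of this circle was 6.66e-14. With each library left out its log2 fold change was 7.85 to 8.89. Of the 10700 circRNAs of the total lists, 37 had at least 100 reads in any library. Of these, 2 had at least 100 reads in both KO libraries and at most 3 in both WT libraries, this circle among them. These cutoffs were set around the values of this circle. In the cytoplasm, however, the same circle was counted 834 and 838 times in WT against 436 and 1282 times in KO, or 107 and 102 per 10000 against 86.1 and 202. The KO libraries lay on both sides of WT (log2 fold change 0.53, adjusted p = 0.662), and it ranked as 2 in both WT libraries. The WT total and WT cytoplasmic lists therefore disagree on its level. Of 31 circRNAs with at least 100 reads in both WT cytoplasmic libraries, 3 had at most 3 reads in each WT total library, and the median of the 31 was 251 reads over both. None of the 7 such circRNAs in KO did. Nuclear reads of this circle were 1 and 14 in WT against 10 and 28 in KO, with overlapping libraries (log2 fold change 0.41, adjusted p = 0.794). Without scaling the nuclear log2 fold change was 1.33 (adjusted p = 0.450 in edgeR's test). The cause of the low WT total counts was not tested, and no difference near that in total RNA was seen in the nuclear or cytoplasmic lists.

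**Figure D4:**
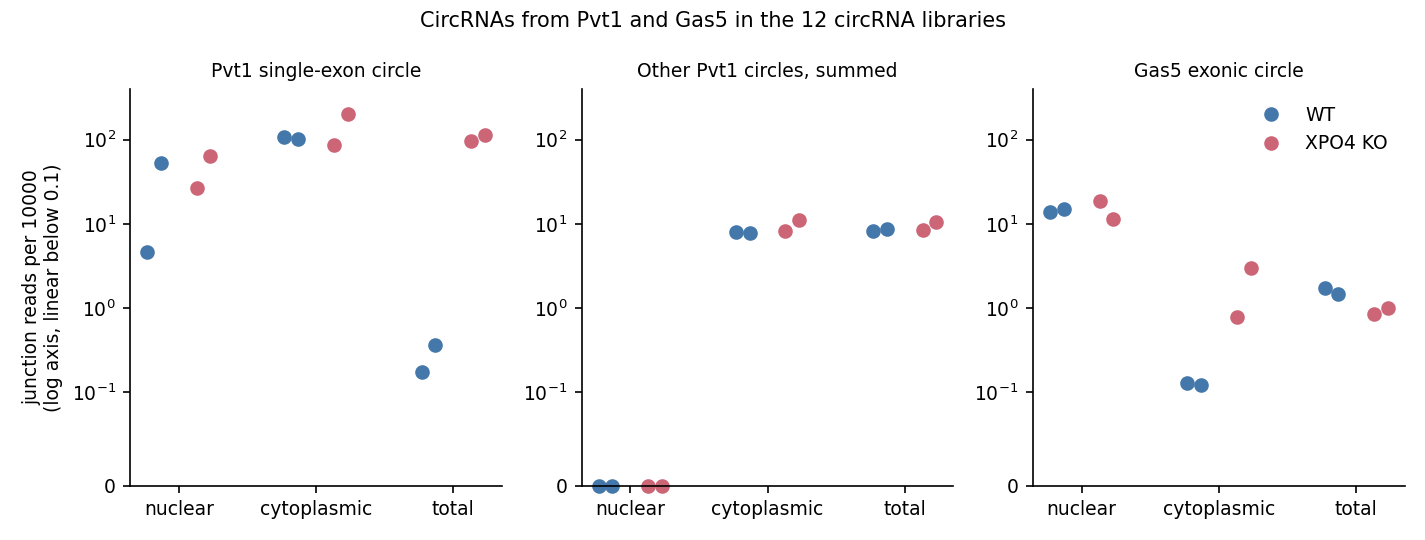
Junction reads per 10000 of a library (y axis, log scale above 0.1 and linear below) of the Pvt1 single-exon circle, of the other Pvt1 circles summed, and of the Gas5 circle between exon edges, in nuclear, cytoplasmic and total RNA. Each point is 1 library, WT in blue and XPO4 KO in red. The single-exon circle lies at 0.173 and 0.363 in WT total RNA and between 86.1 and 202 in the KO total libraries and in all cytoplasmic libraries.

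Backsplicing within Pvt1 joined a small set of exon edges in varying pairs, and the pairs did not change together. In the cytoplasm 9 Pvt1 circles were tested and 4 called, 2 in each direction, where 53.5% of the 8917 cytoplasmic circRNAs tested were called. The circle chr15:62107148-62175548 was read 1 time in either WT library against 5 and 8 times in KO (ratio 9.11, 95% counting interval 2.06 to 83.2, log2 fold change 3.07, adjusted p = 0.00153). The circle chr15:62149239-62175926 had 5 and 7 WT reads against 14 and 13 KO reads (1.70, 0.00857). With the ends of these circles exchanged, the direction was opposite: chr15:62107148-62175926 had 10 and 8 WT reads against 2 and 1 KO reads (-1.97, 0.0194), and chr15:62149239-62175548 had 8 and 8 against 2 and 0 (-2.34, 0.0164). None of these calls was made by DESeq2, whose adjusted p values for them were 0.0847, 0.139, 0.218 and 0.186. In edgeR's test the first was also lost without WT replicate 2 (adjusted p = 0.0573), and the second without WT replicate 1 (0.179) or WT replicate 2 (0.188). The third was lost without KO replicate 1 (0.140) or KO replicate 2 (log2 fold change -1.06, adjusted p = 0.411). The fourth was at -0.89 without KO replicate 2 (adjusted p = 0.496) and at a fitted -5.77 without KO replicate 1 (0.0312), where the remaining KO library had 0 reads. In total RNA the first of these had 12 and 9 WT reads against 5 and 8 KO reads, the second 4 and 8 against 5 and 6, and the fourth 2 and 5 against 3 and 4, without calls. The third had 3 and 7 WT reads and 0 KO reads, at least 3.20-fold lower when the KO sum is set at 3 reads (edgeR's adjusted p = 0.0580, unadjusted p = 0.00267). Among the other Pvt1 circles, chr15:62107148-62149352 had 18 and 16 cytoplasmic reads for WT against 4 and 36 for KO, and chr15:62242174-62242561 had 13 and 11 against 8 and 7. For both the scaled values of KO and WT overlapped, with adjusted p values of 0.409 and 0.828, and without KO replicate 1 the former was called higher (0.0319). In the nucleus the single-exon circle was the only Pvt1 circle listed.

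Gas5 gave a circle between exon edges, chr1:161036208-161036579, which spans 372 bases of the genome. Its cytoplasmic reads were 1 and 1 for WT against 4 and 19 for KO, a ratio of 16.1 with a 95% counting interval of 3.98 to 141 (log2 fold change 3.88, adjusted p = 0.000543). KO replicate 2 held 19 of the 23 KO reads, and DESeq2 gave an adjusted p of 0.0513. With no scaling edgeR's test gave an adjusted p of 0.137. Without KO replicate 2 this circle fell under the minimum of 10 summed reads and could not be tested. Its reads in total RNA were 10 and 8 against 5 and 5 (-0.79, 0.260), and in the nucleus 3 and 4 against 7 and 5 (-0.17, 0.864). The second Gas5 circle was found in the nucleus alone, with 2 and 6 WT reads against 2 and 1 KO reads (ratio 0.223, 95% counting interval 0.0380 to 0.927, adjusted p = 0.0699).

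The Snhg1 circle, which spans 510 bases of the genome, was found in the cytoplasm alone, with 7 and 8 WT reads against 1 and 1 KO reads. Both KO libraries were lower (ratio 0.187, 95% counting interval 0.0207 to 0.804, log2 fold change -2.25, adjusted p = 0.0195), as 82.2% of cytoplasmic circRNAs had KO and WT libraries that did not overlap. Without KO replicate 1 the adjusted p was 0.222, without KO replicate 2 it was 0.267, and with DESeq2 it was 0.199.

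The 3 Malat1 circles were listed in the nucleus alone, away from exon edges. In the order shown, WT gave 1 and 2, 2 and 1, and 0 and 1 reads, and KO gave 3 and 5, 4 and 6, and 2 and 2 reads. Summed, the Malat1 circles gave 13.7 and 15.2 reads per 10000 in WT and 24.0 and 29.7 in KO. The KO values were both above the WT values, and 62.2% of the nuclear circRNAs tested had groups that did not overlap in one direction or the other, and the exact permutation p of 0.333, two-sided, is the smallest that 2 against 2 libraries allow. With edgeR's test neither of the 2 that could be tested passed (adjusted p = 0.769 and 0.574), nor did they without scaling (0.242 and 0.176).

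Over all members, 0 of 5 circles tested in the nucleus, 6 of 11 in the cytoplasm and 0 of 11 in total RNA were called by edgeR. The background was 10.1% of 651 in the nucleus, 53.5% in the cytoplasm and 0% of 8903 in total RNA, where 3405 circRNAs had an unadjusted p under 0.05 and DESeq2 called 8. The 6 cytoplasmic calls, 3 higher and 3 lower, are thus at the background share. PCR reads without molecular identifiers are not independent molecules, so the counting intervals cover counting error alone.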

How the data were processed

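The 6 lncRNAs and all gene lists were chosen with earlier results of these data known. Samples were grouped by their titles. For mRNA-seq, the authors aligned reads with HISAT2 to mm10 (GRCm38), counted them per gene with featureCounts (version 2.0.0; exons, without strand) and deposited raw counts. For circRNA-seq, the authors removed adapters with cutadapt, ran find_circ and deposited junction read counts with positions, whose starts were raised by 1 here. Tools and build are from the labels, the study's methods and the file headers.

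Gene IDs were matched to GENCODE symbols (55141 of 55401). Genotypes were compared by the quasi-likelihood test of edgeR (version 4.0.16 under R 4.3.3), with library sizes scaled by TMM, over all genes that passed filterByExpr, and within each fraction over circRNAs with at least 10 summed reads, with absent ones as 0. P-values were adjusted by Benjamini-Hochberg, with a threshold of 0.05. FPKM was computed from counts and exon length. CircRNA sums per 10000 junction reads were compared by an exact permutation test. In simulated counts the mRNA-seq test recovered 78.5% of 1.5-fold changes, and the circRNA test 24.2% (nuclear), 41.5% (cytoplasmic) and 39.5% (total) of 4-fold changes, in features above a minimum mean count. The simulation assumed a fixed spread between libraries and changed at most 200 features, so these shares need not hold in these data. Sequences came from the RefSeq GRCm38.p6 genome and start windows.

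Named in the text are the 6 lncRNAs, up to 4 called genes with the smallest adjusted p per list (any marker), neighbours within 100 kb that were called or overlap, the 3 genes most correlated with each lncRNA, and the circRNAs with most reads or calls. A few genes that this rule would name are not reported here. The circRNAs beyond the 5 with most reads were named after their values were seen. Alternatives were other scalings, no filter, DESeq2 (version 1.42.0), the replicate number as a block, TPM, circles on exon edges, and leaving out each library. The lists without KO replicate 2 were chosen after seeing the data. Same-numbered WT and KO libraries were not paired by any source.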

Additional observations from a re-analysis of the deposited data

Results flagged for a closer look

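The Gas5 circle between exon edges, its only circle outside the nucleus, was higher in both KO libraries than in both WT libraries in the cytoplasm, by 1.77 junction reads per 10000, and lower in both in total RNA, by -0.665 per 10000. The Pvt1 circle chr15:62107148-62175548 did the same, with differences of 1.00 per 10000 in the cytoplasm and -0.631 per 10000 in total RNA. In both cases the KO libraries lay above the WT libraries in the cytoplasm and below them in total RNA. For the Pvt1 circle the gap in total RNA was narrow, from 1.63 in WT replicate 2 to 1.59 in KO replicate 2. Neither difference in total RNA was called by edgeR's test (adjusted p = 0.260 for Gas5 and 0.341 for Pvt1). The share of circRNAs with opposite differences in these fractions was not counted. KO and WT libraries did not overlap for 82.2% of circRNAs tested in the cytoplasm and 70.1% of those in total RNA. The difference between the fractions was not tested, and the counts behind it are as low as 1 read per library.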

How the results depend on the processing

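Gas5 and Pvt1 stayed lower and called under all 12 alternatives. The number of the 6 lncRNAs called, 2, was 2 to 4 with each library left out, and 4 without KO replicate 2 alone, where Malat1 was called higher and Snhg1 lower. It was 3, with Snhg1 added, under the other scalings, with no filter, with the replicate block and without WT replicate 1. With a replicate block Malat1 was at -0.0092, and with each library left out it ranged from -0.18 to 0.26 and Neat1 from -0.039 to 0.13 (log2 fold changes), neither called except Malat1 without KO replicate 2.

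Same-numbered libraries share only a number: the correlations of their deviations from the group means were 0.111, 0.0836 and -0.126, and not every library correlated best with its own number. The replicate block changed the 7151 genes called to 7124, the lncRNAs called from 2 to 3 (Snhg1, adjusted p = 0.0289 in edgeR's test) and the total circRNAs called from 0 to 2054.

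CircRNA calls depended on the setting. In the nucleus, 66 became 43 with library totals, 0 with no scaling, 40 with no filter and 0 with DESeq2, and 3 to 29 with each library left out. In the cytoplasm, 4768 became 2353 with no scaling and 453 with DESeq2, and 1928 to 3553 with each library left out. In total RNA, 0 became 2003 with library totals and 8 with DESeq2, and 0 to 508 with each library left out. The cause was not tested.

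Of single circles, those whose log2 fold change turned had low counts. The nuclear Gas5 circle between exon edges was at 0.76 with no scaling, 0.0053 with no filter and -0.54 to 0.99 with each library left out, and Pvt1 chr15:62159997-62175926 in the cytoplasm was at -0.13 with no scaling and -0.23 to 0.93. With each library left out, the nuclear values ranged from -0.72 to 2.79 for the single-exon Pvt1 circle and from -0.029 to 1.13 for Malat1 chr19:5801662-5801857, and Malat1 chr19:5796326-5796850 could be fitted in 1 case alone, at -0.13. The cytoplasmic ranges were -0.997 to 2.03 for Pvt1 chr15:62107148-62149352 and -0.75 to 0.49 for chr15:62242174-62242561. In total RNA they were -0.064 to 1.27 for chr15:62107148-62149352, -0.75 to 0.45 for chr15:62149239-62175926, -0.37 to 0.53 for chr15:62242174-62242561, -1.16 to 0.061 for chr15:62107148-62175548 and -0.72 to 0.63 for chr15:62149239-62175548. Where 1 library is left in a group, it is assumed to vary like the others.

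Per 10000 junction reads, the KO minus WT difference of the summed nuclear Gas5 circles was -11.5 and became 0.612 with circles on exon edges alone. That of Pvt1 was 16.4 in the nucleus, -7.83 to 40.7 with each library left out, and 41.3 in the cytoplasm, -18.3 to 101 likewise. The nuclear libraries, with at most 4383 junction reads, limit what can be told of Malat1 and Gas5 circles.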
